A study of Bos indicus with 8 samples.

Results

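The insulin-like growth factor (IGF) system was followed in cattle cumulus cells, which enclose the oocyte in the follicle, after culture with or without follicle-stimulating hormone (FSH). Its 10 genes were IGF1, IGF2, IGF1R, IGF2R, IGFBP2, IGFBP3, IGFBP4, IGFBP5, IGFBP6 and PAPPA. They were found by taking every probe whose gene symbol in the platform annotation is a member, which gave 12 of the 43794 probes on the array, 3 for IGF2 and 1 for each other gene. The array carries 15229 gene symbols in all. Cumulus-oocyte complexes were taken from slaughterhouse ovaries (follicles of 3 to 6 mm) and cultured for 6 h. The medium of both arms held adenosine (3 mM), 17β-oestradiol (1 µg/ml), pyruvic acid (0.2 mM), gentamicin and 10% fetal bovine serum, and that of the treated arm also held recombinant human FSH (0.5 µg/ml). The labels give Bos indicus as the organism, and 4 pools in each arm. They put the number per pool at 10 without naming its unit. FSH and control pools of one replicate number shared 2 two-colour arrays with the dyes exchanged, so that 8 arrays gave 4 replicate values of FSH over control. The labels call the replicates biological, and whether the FSH and control pools of one number came from the same ovaries is not given there.

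IGF1 and IGF2 are secreted ligands that signal growth and survival through the receptor tyrosine kinase IGF1R, while IGF2R, the cation-independent mannose 6-phosphate receptor, takes up IGF2 and delivers it for breakdown. IGF-binding proteins hold the ligands in the extracellular space, and the metalloprotease PAPPA cuts IGFBP4 and so frees bound ligand. In the ovary this system is known as a local partner of FSH: IGF signalling increases the response of granulosa cells to the hormone, and the loss of binding proteins from the fluid of growing follicles accompanies the choice of a dominant follicle in cattle.

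The arrays differed in brightness. Median spot signals ranged from 55.8 to 184.3 (Cy3) and from 26.6 to 59.0 (Cy5). A detection limit was set for each array and channel at the mean plus 2 SD of its 153 negative control spots. Control pool 3 stood apart: its limits were the highest of all arrays in either dye (192.1 in Cy3 and 82.2 in Cy5), and 46.3% and 33.9% of the probes exceeded them, against 68.9% to 84.0% in the control channel of the other arrays. The FSH channel of 1 array of replicate 1 was as poor, with 42.5% of the probes above its limit of 142.1, while the other array of that pool had 86.4%. Summed oocyte transcripts were also higher in control pool 3. Of 12 oocyte markers, 3 exceeded the limit in all 8 pools. In control pool 3 BTG4 (9.35), DPPA3 (8.43) and FIGLA (8.13) stood highest among them. There ZP3 (6.68) and OOEP (6.74) lay within their range in the other pools, and MOS (6.78) was at its lowest. The summed log2 level of the 12 was 11.29 in control pool 3 and 10.58 in control pool 4, and lay between 10.16 and 10.22 in the other 6 pools. The ratios of the tested members are therefore also given without replicate 3. Of 11 granulosa and cumulus markers, 9 exceeded the limit in all 8 pools, among them FSHR, AMH, INHA and CYP19A1, and the transcription factor gene FOXL2 peaked at 1.05 times it. The summed log2 level of the 11 was 15.91, 15.92, 15.82 and 16.03 in control pools 1 to 4 and 15.62, 15.66, 15.35 and 15.01 in the FSH pools. This sum was lower in every FSH pool than in any control pool, and INHBA, INHA and FST made up most of it. INHBA, which encodes an activin and inhibin subunit, lay between 13.23 and 14.04 in the FSH pools and between 14.56 and 14.78 in the control pools. Levels of the 2 arms likewise did not overlap for 3.41% of the 32228 probes bright enough to be tested. Of these probes, INHBA included, 0 passed the test of FSH against control given below. FSHR, CYP19A1 and HSD3B1 were higher in FSH pool 1 than in control pool 1. The part of these differences in the ratios given here was not tested.

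Members of the IGF system fell into 3 kinds by how far their signal rose above the limit. IGF1R, IGF2R and IGFBP4 exceeded it in all 8 pools, IGFBP4 with 1 of the 2 arrays of control pool 3 below it. IGF2 (probe EMBV3_37311) and IGFBP3 exceeded it in 7 of 8 pools, the exception for both being control pool 3. The remaining 5 genes, IGF1, IGFBP2, IGFBP5, IGFBP6 and PAPPA, stayed near the limit, and their highest pool lay between 1.01 (IGFBP5) and 1.21 (IGFBP2) times it. Over all probes of the array, 37.3% exceeded the limit in all 8 pools. Probes were tested if they exceeded the limit in at least 3 of 4 pools of an arm, and 10 of the 12 member probes were, for 9 of the 10 genes. The 2 probes left out were the one for IGFBP5 and EMBV3_41040 for IGF2.

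No member passed the test of FSH against control. Limma with Benjamini-Hochberg adjustment called 0 of the 10 tested probes of the system and 0 of 32228 tested probes overall (0%). At an unadjusted p under 0.05 the system had 0 of 10, against 9.01% of all tested probes. The mean log2 ratio was above 0 for 7 and below 0 for 3 of the 10 members at their brightest probe (the untested IGFBP5 included), with a median of 0.0045, and the median over all 12338 tested genes was -0.0017. One member, IGFBP6, lay on the same side of 0 in all 4 replicates, against 20.4% of tested probes. In every tested member probe the levels of the FSH pools overlapped those of the control pools, and the levels did not overlap for 3.41% of all tested probes. The 10 ratios differ mainly in their spread, as the plot of the replicate ratios shows.

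**Figure D1:**
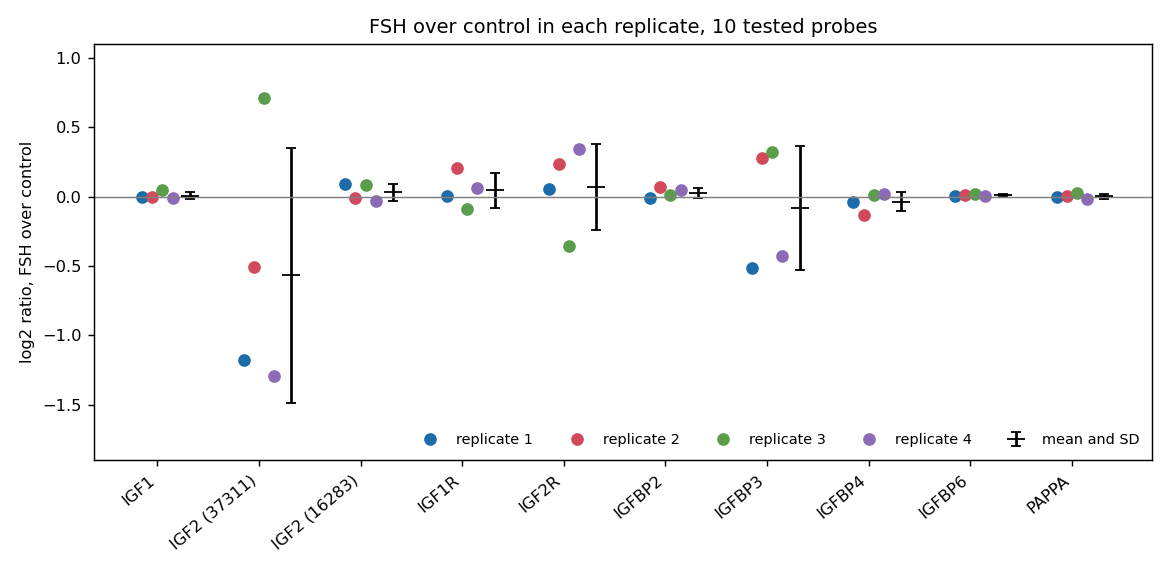
Log2 ratio of FSH over control (y axis) of the 10 tested IGF system probes (x axis); coloured points are the 4 replicates, each the mean of 2 arrays of opposite dye orientation, and black bars are the mean and SD. IGF2 (EMBV3_37311) spans -1.29 to 0.71 and IGFBP3 -0.51 to 0.32, whereas the values of IGF1 reach at most 0.048 and those of PAPPA 0.023.

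Of the ligands, IGF2 varied most. The level of probe EMBV3_37311, a log2 signal of 1 channel averaged over the 2 arrays of a pool, was 8.10, 8.50, 6.34 and 8.01 in control pools 1 to 4. It was 6.92, 7.99, 7.05 and 6.72 in the FSH pools of the same numbers. Control pools 1, 2 and 4 were thus above all FSH pools, and control pool 3 was below all of them. Control pool 3 was below the limit on both of its arrays, so the level there, and with it the ratio of replicate 3, is only a bound. As log2 FSH over control this was -1.18, -0.51, 0.71 and -1.29 in replicates 1 to 4, lower with FSH in 3 of 4. Its mean was -0.57 ± 0.92 (SD, n = 4), with a 95% interval from -1.62 to 0.49 and an adjusted p of 0.699 in the limma fit. Without replicate 3 the mean was -0.99 ± 0.42 (SD, n = 3), and the adjusted p was 0.419 (0.325 to 1.000 over the alternatives run). It was -0.36 without replicate 1 and -0.33 without replicate 4. Among all tested probes, 99.4% had an SD between replicates as small or smaller.

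**Figure D2:**
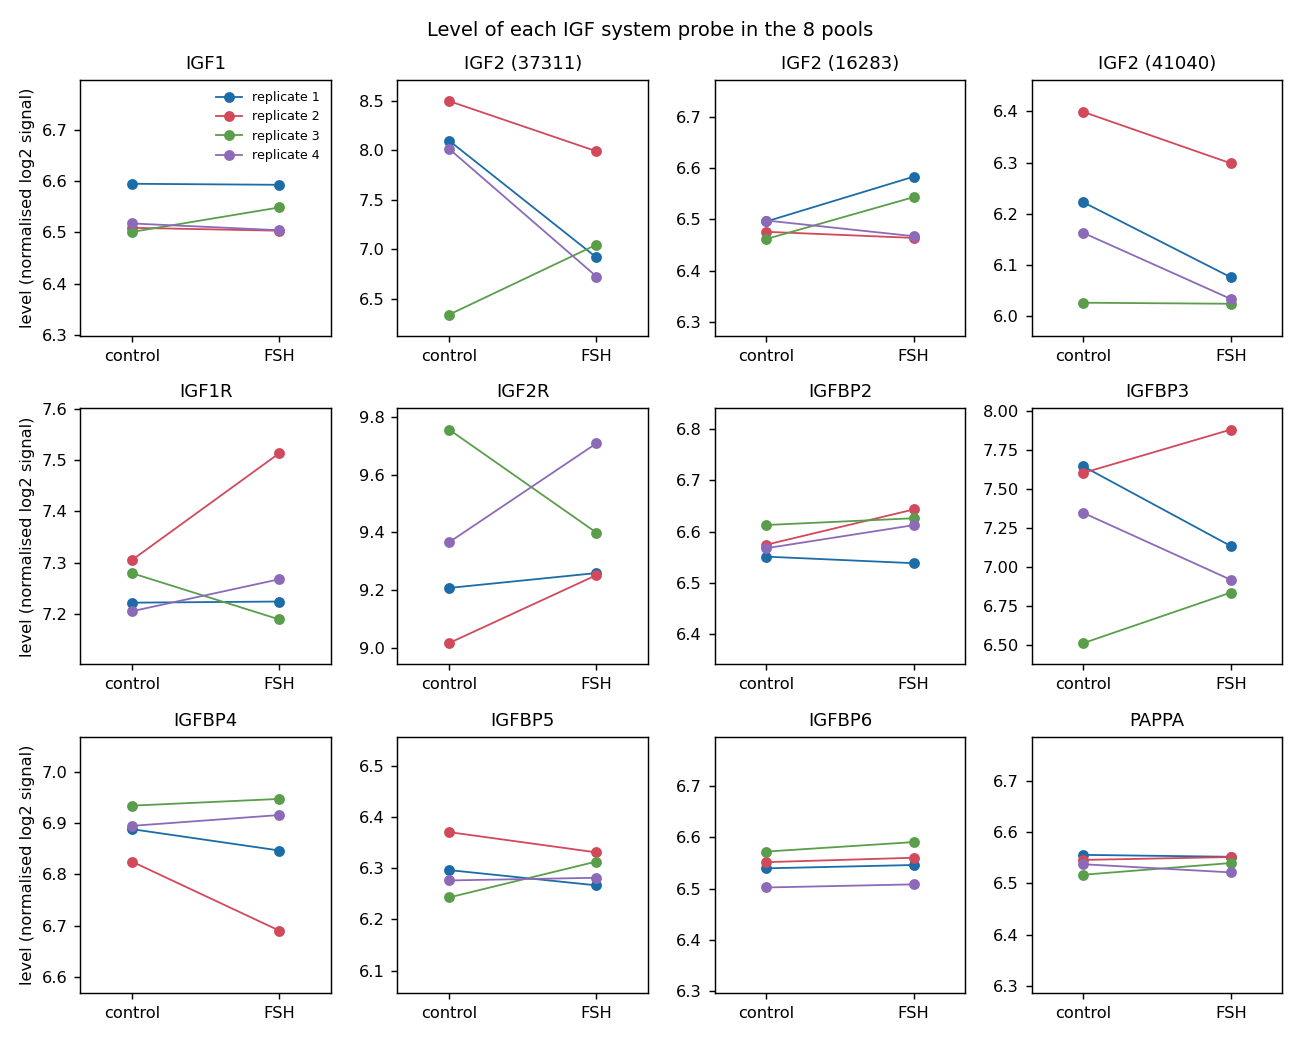
Level of each of the 12 IGF system probes (y axis, normalised log2 signal of 1 channel, mean of 2 arrays, own axis per panel) in the control and FSH pools (x axis); lines join the pools of 1 replicate number. IGF2 at EMBV3_37311 falls along 3 of 4 lines and starts from 6.34 in control pool 3, and IGFBP6 spans 0.089 log2 units over the 8 pools.

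The other IGF2 probes were at or below the limit. EMBV3_16283 had ratios of 0.087, -0.012, 0.082 and -0.031 in replicates 1 to 4, with a mean of 0.032 ± 0.062 (SD, n = 4), an adjusted p of 0.786 in limma, and a signal that peaked at 1.08 times the limit. Without replicate 3 it stood at 0.015. EMBV3_41040 was below the limit on all 8 arrays in the FSH channel and on 7 of 8 in the control channel, so no ratio is given for it. Its level was 6.22, 6.40, 6.03 and 6.16 in control pools 1 to 4 and 6.08, 6.30, 6.02 and 6.03 in the FSH pools. As at EMBV3_37311, the FSH pools of replicates 1, 2 and 4 were lower than their control pools, and in replicate 3 the levels were nearly equal. The likeness did not extend to replicate 3. In the authors' deposited table EMBV3_41040 was lower with FSH in all 4 replicates, whereas EMBV3_37311 was higher with FSH in replicate 3. The same contrast in replicate 3 was seen when no constant was added to the channels before the logarithm. Over the 8 pools the level of EMBV3_41040 had a Pearson correlation of 0.91 with that of EMBV3_37311. That of EMBV3_16283, which was tested, had a correlation of -0.18 with it. Both are given as a description of pools that share arrays, at probes at or below the limit. The sources used here do not say which IGF2 transcripts the 3 probes bind. The statements on IGF2 therefore rest on EMBV3_37311, the brightest of them. In the mean over both tested probes the IGF2 ratio was -0.27.

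IGF1, the ligand that circulates mainly from the liver, had levels of 6.59, 6.51, 6.50 and 6.52 in control pools 1 to 4 and 6.59, 6.50, 6.55 and 6.50 in FSH pools 1 to 4. Its signal lay between 0.730 and 1.13 times the limit. The ratio was 0.0067 ± 0.028 (SD, n = 4; limma adjusted p = 0.931), and -0.0070 without replicate 3. A constant of 50 was added to both channels before the logarithm, which shrinks the ratios of dim probes. Without that constant the IGF1 ratio was 0.032 ± 0.071. Other dim members changed too: IGFBP2 then stood at 0.12 ± 0.14, above 0 in all 4 replicates, and IGFBP4 at -0.11 ± 0.23. IGFBP6 then stood at 0.034 ± 0.021 and PAPPA at 0.0073 ± 0.041 (SD, n = 4 for each).

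Both receptor transcripts were above the limit on all 8 arrays in either channel. The signal of IGF2R lay between 8.46 and 10.9 times the limit. Its level was 9.21, 9.02, 9.76 and 9.37 in control pools 1 to 4 and 9.26, 9.25, 9.40 and 9.71 in the FSH pools. Replicates 1, 2 and 4 had ratios above 0 (0.052, 0.24 and 0.34) and replicate 3 a ratio of -0.36, where control pool 3 had the highest level of all. The mean was 0.068 ± 0.31 (SD, n = 4), with a 95% interval from -0.29 to 0.43 (limma adjusted p = 0.882). It was 0.21 ± 0.15 (n = 3) without replicate 3, 0.012 without replicate 2 and -0.023 without replicate 4. With median centring it was 0.29, and the authors' deposited table gives a mean of 0.15. IGF1R, the signalling receptor, varied less. Its level was 7.22, 7.31, 7.28 and 7.21 in control pools 1 to 4 and 7.22, 7.51, 7.19 and 7.27 in the FSH pools, with FSH pool 2 above the rest. Ratios of 0.0022, 0.21, -0.090 and 0.063 gave a mean of 0.046 ± 0.13 (SD, n = 4; 95% interval -0.11 to 0.20, limma adjusted p = 0.818), which was -0.0085 without replicate 2 and 0.091 without replicate 3. With median centring the mean of IGF1R was 0.15, as in the authors' deposited table.

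Among the binding proteins IGFBP3, the main carrier of IGFs in blood, moved most between pools. Its level was 7.65, 7.60, 6.51 and 7.35 in control pools 1 to 4 and 7.13, 7.88, 6.84 and 6.92 in the FSH pools. Control pool 3 was again the lowest and below the limit on both arrays, so the ratio of replicate 3 is a bound here too. The ratio was lower with FSH in replicates 1 and 4 (-0.51 and -0.43) and higher in replicates 2 and 3 (0.28 and 0.32). The mean of -0.085 ± 0.45 (SD, n = 4) had a 95% interval from -0.60 to 0.43 (limma adjusted p = 0.900). It turned to 0.058 without replicate 1, to 0.030 without replicate 4 and to 0.086 when arrays were only centred on their medians, and was -0.21 without replicate 2 and -0.22 without replicate 3. Of the tested probes, 94.3% had an SD as small or smaller.

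IGFBP4, the substrate of PAPPA, gave 1.06 to 1.56 times the limit. Its level lay between 6.83 and 6.93 in the control pools and between 6.69 and 6.95 in the FSH pools, the lowest being FSH pool 2. Ratios of -0.042, -0.13, 0.013 and 0.021 gave a mean of -0.036 ± 0.072 (SD, n = 4; limma adjusted p = 0.785), which was -0.0025 without replicate 2, -0.052 without replicate 3 and 0.0020 with median centring. IGFBP2, a binding protein of granulosa cells in several species, had ratios of -0.013, 0.069, 0.013 and 0.045 with a mean of 0.029 ± 0.036 (SD, n = 4; limma adjusted p = 0.744), which was 0.015 without replicate 2 and 0.034 without replicate 3. IGFBP6, which prefers IGF2 over IGF1, had ratios of 0.0065, 0.0086, 0.019 and 0.0061 and a mean of 0.0099 ± 0.0058 (limma adjusted p = 0.874). Its 4 values were on the same side of 0, at a signal of 0.758 to 1.13 times the limit, and the mean was 0.0071 without replicate 3 and -0.016 with median centring. Each value is a mean of 2 arrays of opposite dye orientation, and these lay on the same side of 0 in only 1 of 4 replicates. IGFBP5 was below the limit on all 8 arrays in the FSH channel and on 6 of 8 in the control channel, and no ratio is given for it. RefSeq's gene table (assembly NIAB-ARS_B.indTharparkar_mat_pri_1.0) was used for names and gene order, and there IGFBP2 and IGFBP5 lie next to each other with 0 genes between them.

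PAPPA had levels of 6.56, 6.55, 6.52 and 6.54 in control pools 1 to 4 and 6.55, 6.55, 6.54 and 6.52 in FSH pools 1 to 4. The ratio was 0.0022 ± 0.016 (SD, n = 4; limma adjusted p = 0.977), and -0.0047 without replicate 3. Its signal lay between 0.757 and 1.15 times the limit. In the authors' deposited table the same probe had a mean log2 ratio of -0.052.

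The authors' deposited values had the same signs for the members that varied most. For IGF2 at EMBV3_37311 the authors' deposited table gives log2 ratios of -1.53, -0.79, 0.96 and -1.47 in replicates 1 to 4. For IGFBP3 the authors' deposited table gives -0.65, 0.42, 0.60 and -0.62. For IGF2R the authors' deposited table gives 0.11, 0.21, -0.20 and 0.46. Each of these 12 values had the same sign as the value computed from the scanner intensities. IGF1R also kept its sign in replicates 1 to 4. For IGFBP2 the authors' deposited table gives 0.11, 0.053, -0.033 and -0.052, against -0.013, 0.069, 0.013 and 0.045 from the scanner intensities. IGFBP6, above 0 in all replicates from the scanner, stood at -0.072 there in replicate 4. Some signs also differed for IGF1, IGFBP4, PAPPA and EMBV3_16283. Without the added constant of 50 the IGF2 ratios were -1.71, -0.61, 1.53 and -1.94.

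**Figure D3:**
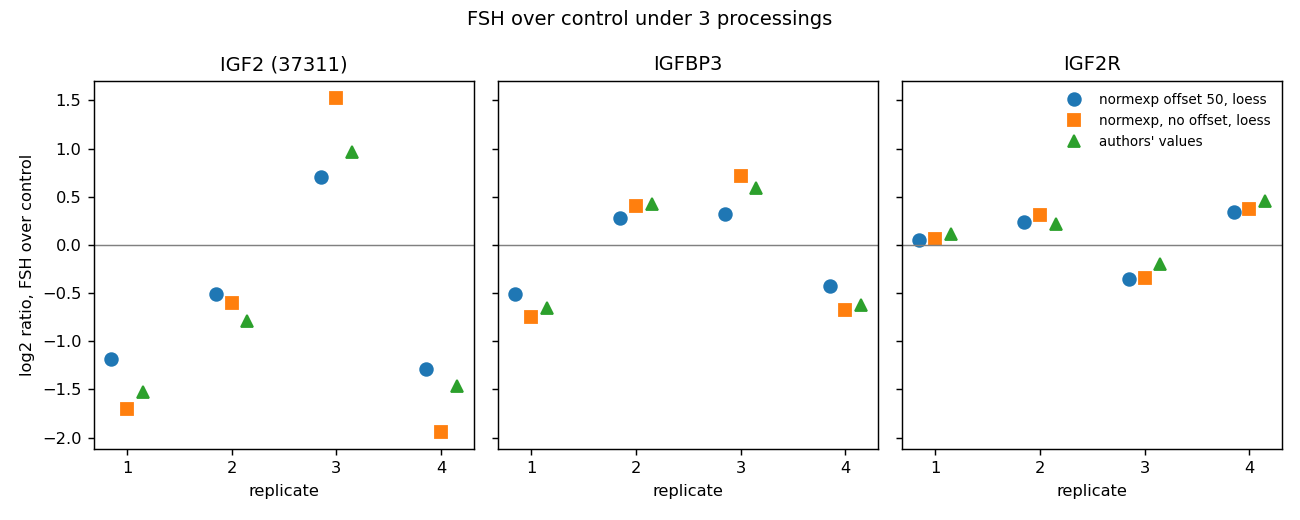
Log2 ratio of FSH over control (y axis) in replicates 1 to 4 (x axis) for IGF2 at EMBV3_37311, IGFBP3 and IGF2R, from scanner intensities with an offset of 50 (circles) or none (squares) and from the authors' deposited values (triangles). The sign of each replicate is the same under the 3 processings, and the IGF2 ratio of replicate 3 ranges from 0.71 to 1.53.

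The 2 arrays of a replicate carry the same RNA with the dyes exchanged, and on them IGF2 (EMBV3_37311), IGF2R and IGFBP3 had ratios on the same side of 0 in all 4 replicates. Both arrays did so in all 4 replicates for 24.2% of the tested probes. IGF1R and IGFBP4 did so in 3 of 4 replicates, PAPPA in 2, and IGF1, IGFBP2, IGFBP6 and EMBV3_16283 in 1. IGF2 averaged -0.40 ± 0.92 (SD, n = 4) on the slide with FSH in Cy5 and -0.74 ± 0.92 (SD, n = 4) on the slide with FSH in Cy3. IGFBP3 averaged -0.042 and -0.13, IGF2R 0.050 and 0.086, and IGF1R 0.065 and 0.027 on these slides. For IGF2 the difference between orientations was 0.34 ± 0.072 (SD, n = 4), in the same direction in 4 of 4 replicates, and passed limma (adjusted p = 5.4e-04), as did 29.7% of all tested probes (42.3% had an unadjusted p under 0.05). Slide and dye orientation coincide and cannot be told apart. The largest gap between the 2 arrays of a replicate was 0.43 for IGF2 and 0.17 for IGFBP3, against 2.00 and 0.84 between the lowest and the highest replicate.

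**Figure D4:**
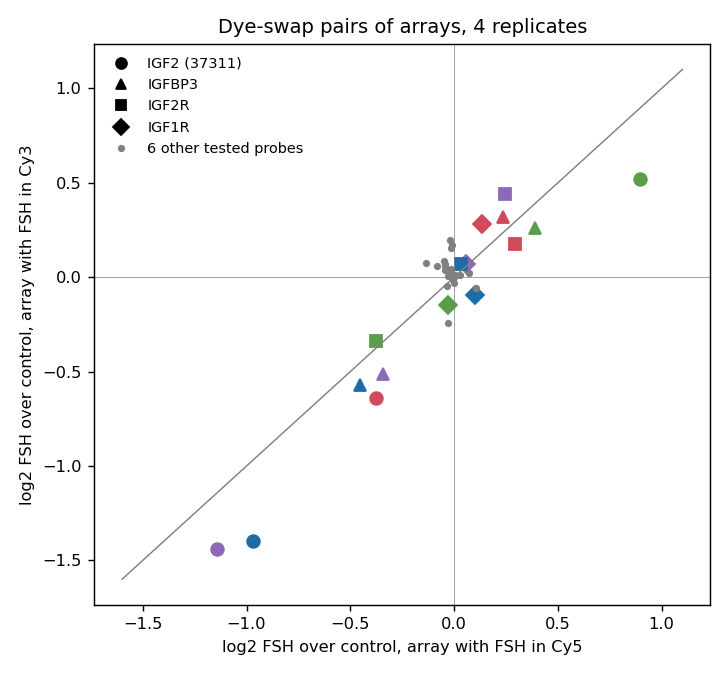
Log2 ratio of FSH over control on the array with FSH in Cy5 (x axis) against that with FSH in Cy3 (y axis) for the tested IGF system probes; colours are the 4 replicates as in the plot of replicate ratios, grey points are 6 other probes, and the line marks equal values. IGF2 points lie below the line, with a mean difference of 0.34, and keep their sign on both arrays.

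IGF2 and IGFBP3 were high and low in the same pools. IGF2 was at 7.99 or above in control pools 1, 2 and 4 and FSH pool 2, and IGFBP3 was at 7.35 or above in the same 4 pools. In the other 4 pools IGF2 was at 7.05 or below and IGFBP3 at 7.13 or below. The pools share arrays in pairs, so their values are not independent. IGF2 was the member with the widest range of level, 2.16 log2 units over the 8 pools. Among the other 12337 tested genes, those with the most similar pattern by Pearson correlation of level over the 8 pools, given as a description, were CSRP3 (0.97), LRFN5 (0.97), ETV3L (0.96), FAM108A (0.96) and USMG5 (0.96). IGFBP3 stood at 0.90, and 47 tested genes, IGF2 itself counted, had a higher value. The other tested members lay between -0.84 (IGF2R) and 0.68 (PAPPA) at their brightest probe. CSRP3, LRFN5, ETV3L and FAM108A stayed near the limit, whereas USMG5, a small protein of the mitochondrial ATP synthase, ranged from 12.05 in control pool 3 to 13.09 in control pool 2.

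**Figure D5:**
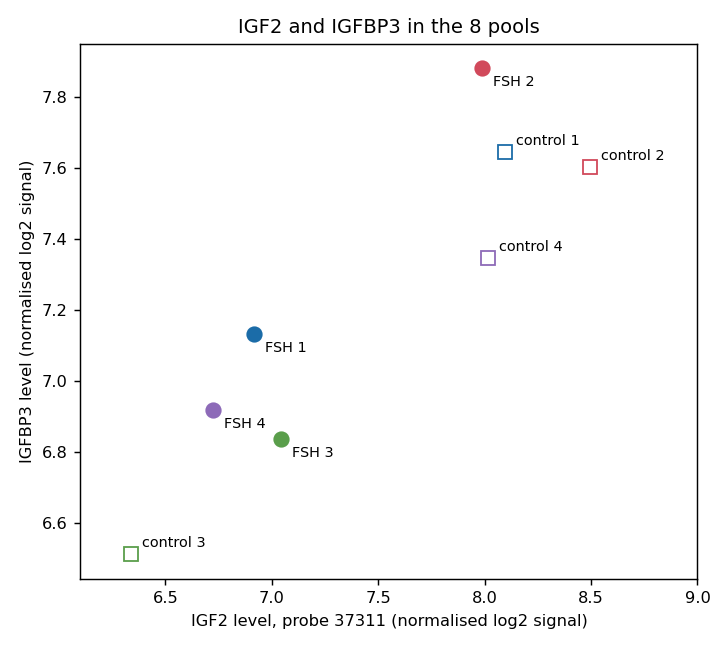
Level of IGF2 at EMBV3_37311 (x axis) and of IGFBP3 (y axis), both as normalised log2 signal, in the 4 control pools (open squares) and the 4 FSH pools (filled circles), coloured by replicate. Control pool 3 is lowest in both at 6.34 and 6.51, and FSH pool 2, at 7.99 and 7.88, lies closer to the other control pools than to the other FSH pools.

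Other cells of the follicle also express IGF system genes, and markers of other cell types were measured in the same pools. In bulk RNA, fewer cells of a type and less RNA per cell cannot be told apart. The summed log2 level of 10 theca and stroma markers was 14.00, 13.82, 12.98 and 13.93 in control pools 1 to 4 and 13.74, 13.85, 13.21 and 13.00 in the FSH pools, so that it was lowest in control pool 3 and FSH pool 4. Of the 10 markers, 4 exceeded the limit in all 8 pools and ACTA2, the smooth muscle actin gene, made up most of the sum. The defining theca markers CYP17A1 and INSL3 peaked at 1.08 and 1.71 times the limit. LUM, which encodes the matrix proteoglycan lumican, stood at 9.29 in control pool 3 and between 10.00 and 10.72 in the other pools (10.41 in FSH pool 4). PDGFRA, also above the limit in all 8 pools, went the other way. It was highest in FSH pool 4 (9.60) and control pool 3 (9.51), and lay between 8.78 and 9.28 elsewhere. COL1A1, above the limit in all 8 pools too, stood at 7.12 in control pool 3 and 7.10 in FSH pool 4, and between 7.03 and 7.48 elsewhere. The sum of 6 endothelial markers lay between 11.73 and 12.44 in the control and 10.94 and 12.33 in the FSH pools, and MCAM (10.55 to 12.32) made up most of it, while PECAM1 exceeded the limit in 0 of 8 pools. The sum of 6 immune cell markers lay between 9.66 and 10.85 in the control and 9.59 and 10.58 in the FSH pools, with PTPRC (8.28 to 10.46) as its most variable member. The sum of 3 red blood cell markers lay between 8.20 and 8.35 and between 8.13 and 8.33 in these arms. FSHR was lowest in control pool 3 among the control pools (8.81, against 10.05 to 10.44) and at 10.64, 10.26, 9.31 and 9.04 in FSH pools 1 to 4. The granulosa and cumulus markers were mixed in control pool 3. Among the control pools AMH, CYP19A1, FST and HSD3B1 were also lowest there. NR5A2 (11.52, against 10.52 to 10.97), GJA1 (12.50, against 12.29 to 12.43) and AMHR2 (6.58) were highest there, and INHA (13.86) and INHBA (14.57) lay within the range of the others. The part of these differences between pools in the IGF2 and IGFBP3 values was not tested.

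Of 26 other genes of the pathway, 22 had a probe and 17 were tested, and 0 of the 17 passed limma in either direction (10% of all tested genes had an unadjusted p under 0.05, and 0 of these 17 did at their brightest probe). In the fit over all probes, 2 of the 23 tested probes of these genes had an unadjusted p under 0.05, that of PCSK6 (0.035) and 1 of 3 for M6PR (0.023), against 9.01% of all tested probes. Means were higher with FSH for 12 and lower for 5, with a median log2 ratio of 0.025. The lowest unadjusted p belonged to PCSK6, a proprotein convertase, with ratios of 0.064, 0.027, 0.12 and 0.089 and a mean of 0.076 ± 0.041 (SD, n = 4; limma adjusted p = 0.496). Its signal reached at most 1.32 times the limit. SHC1, an adaptor that links receptor tyrosine kinases to Ras, had ratios of 0.014, -0.12, -0.56 and -0.30 and a mean of -0.24 ± 0.25 (limma adjusted p = 0.540). INSR, the insulin receptor gene, had ratios of -0.017, 0.26, 0.55 and 0.057 and a mean of 0.21 ± 0.25 (limma adjusted p = 0.589). FURIN, a convertase of prohormones, stood at 0.044 ± 0.021 (limma adjusted p = 0.603) at no more than 1.06 times the limit.

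A further 4 genes of the pathway, far above the limit in every pool, were chosen after their values were seen. IGFBP7, a secreted protein of low affinity for IGFs, gave 64.0 to 108.0 times the limit and had a ratio of 0.029 ± 0.18 (SD, n = 4; limma adjusted p = 0.917). GRB14, an adaptor that restrains insulin receptor signalling, had ratios of -0.016, 0.27, -0.17 and 0.90 and a mean of 0.24 ± 0.47 (limma adjusted p = 0.726). HTRA1, a secreted serine protease that can cut IGF-binding proteins, had ratios of 0.11, -0.040, -0.44 and -1.32 and a mean of -0.42 ± 0.64 (limma adjusted p = 0.652). STC1, an inhibitor of PAPPA, had ratios of -0.49, 0.68, -0.44 and -0.0041 with a mean of -0.063 ± 0.54 (limma adjusted p = 0.941). The replicates of STC1, GRB14 and IGFBP7 thus lay on both sides of 0, and the low mean of HTRA1 rests largely on replicate 4. IRS1, IGFALS, ADAM12, INSRR and IGF2BP2 were too dim to be tested, and IRS2, GRB10, PRG2 and H19 had no probe under these symbols.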

How the data were processed

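Amplified cumulus RNA was labelled with Cy3 or Cy5 and hybridised to 8 bovine arrays on 2 slides, per the labels' protocols. The deposited scanner files hold mean spot intensity and median local background per channel on a linear scale, per the file headers, with 45220 spots an array. The authors' normalized log2 ratios are deposited as Cy5 over Cy3 and, in the series matrix, as FSH over control (the 2 tables differ by at most 5.0e-06 after turning). Direction and scale were checked against the scanner ratios (r from 0.657 to 0.833 across probes). Columns were centred near 0, with medians from -0.0038 to 0.018, and the sources used here do not state the authors' normalization. The 8 columns had medians of 0.0082, 0.0092, -0.0038 and 0.0011 (replicates 1 to 4, FSH in Cy5) and 0.0089, 0.015, 0.011 and 0.018 (FSH in Cy3).

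From the intensities, limma 3.58.1 (with statmod 1.5.0, under R 4.3.3) gave normexp background correction (offset 50), global loess with control spots at weight 0, spots marked as ignored left out (0 at member probes), ratios turned to FSH over control, and the 2 arrays of a replicate averaged. Levels of single channels were taken after quantile normalization of average intensities. A pool exceeded the limit (mean plus 2 SD of negative controls) on the mean log signal of its 2 arrays, and 3 of 4 pools of an arm were required. The test of FSH against control was limma's (lmFit, intercept alone, then eBayes) on 4 values a probe, adjusted over 32228 probes, or 12338 genes at their brightest probe (1 probe was lost to ignored spots). The number of arrays limits precision. All 10 member symbols were found in the RefSeq gene table.

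Members, lists and tests were chosen with earlier results of these data known. The text names all members, the 4 other pathway genes of lowest unadjusted p, and the 5 genes most like the member of widest range. IGFBP7, GRB14, HTRA1, STC1, M6PR, GAB1, IGF2BP3 and the marker genes given by name were chosen after their values were seen. Deviations of FSH and control pools of one number correlated with r = 0.70, 0.72, 0.61 and 0.20 across probes. These pools share arrays, which adds to the correlation, and FSH pool 4 correlated more with control pool 3 (0.73). All pairs being above 0.1, the numbers were taken as pairing the pools. FSH pool 1 also correlated with control pool 2 (0.62), and FSH pool 2 with control pool 1 (0.57). As pools of one number share arrays, these values cannot show that they had a common origin. Alternatives are given in the closing section.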

Additional observations from a re-analysis of the deposited data

Results flagged for a closer look

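The ratio of IGF2 differed between the dye orientations. At probe EMBV3_37311 it was higher by 0.34 on the log2 scale (0.27 to 0.43 over the 4 replicates) with FSH in Cy5 than with FSH in Cy3 (limma adjusted p = 5.4e-04), and at EMBV3_16283 it was lower by 0.15 with FSH in Cy5, a difference of -0.15 (-0.22 to 0.0098 over the replicates, limma adjusted p = 0.041). A difference between orientations was called for 29.7% of the tested probes, and for 0 probes with median centring alone (4080 at an unadjusted p under 0.05). Of 30 groups of 4 values tested at the member probes (ratios, FSH pools and control pools), 0 held a value beyond Dixon's critical value, where chance gives about 1 in 20.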

How the results depend on the processing

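Over 18 alternatives, 136 of 155 member values kept their sign and 19 did not, and 0 passed limma (lowest adjusted p = 0.302). Several alternatives changed the filter or the test but not the estimate, so no sign could change there. These were no filter on dim probes, the stricter filter, single channels without the replicate block, and both fits with that block (IGF2 at -0.57 wherever it was kept). The mean over tested probes likewise left genes with 1 tested probe unchanged. IGF2 stayed below 0 in all 17 alternatives that gave it a value, from -0.99 to -0.27; the stricter filter left IGF1R and IGF2R alone among the members. With median centring IGF1 was at -0.011, IGFBP3 at 0.086, IGFBP4 at 0.0020, IGFBP6 at -0.016 and PAPPA at -0.013, IGF1R was at 0.15 (0.046 with loess) and IGF2R at 0.29 (0.068 with loess), and the median of all tested genes moved to 0.048. On the slide with FSH in Cy5, IGF1 was at -0.020, IGFBP2 at -0.018, IGFBP6 at -0.027 and the median of the 10 members at -0.016. On the slide with FSH in Cy3, PAPPA was at -0.022 and that median at 0.018. PAPPA was at -0.052 in the authors' values and at -0.0023 without background correction. IGF1 was at -0.0022 with quantile normalization and scaling, and at -0.0038 without replicates 3 and 4. Without the offset the members' median was 0.020. These last 2 settings were chosen after seeing the data. The cause of these changes was not tested. Leaving out 1 replicate at a time, the ranges were -0.0070 to 0.013 for IGF1, -0.0085 to 0.091 for IGF1R, -0.99 to -0.33 for IGF2, -0.023 to 0.21 for IGF2R, 0.015 to 0.042 for IGFBP2, -0.22 to 0.058 for IGFBP3, -0.054 to -0.0025 for IGFBP4, 0.0071 to 0.011 for IGFBP6 and -0.0047 to 0.0082 for PAPPA.

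Over all probes, the fit of 8 single arrays with the replicate block called 641 probes and 276 genes, and 137 probes and 24 genes with an added dye term. Both count 2 arrays of the same RNA as separate values. They called 0 members and 0 other genes of the pathway. The slide with FSH in Cy3 alone gave 2 probes and 1 gene, and that with FSH in Cy5 gave 2 probes. Probes that differed between orientations numbered 9565, against 3036 in the authors' values, 0 with median centring (4080 at an unadjusted p under 0.05), 15177 without background correction, 4134 with the stricter filter and 4163 to 12977 without 1 replicate (4163 without replicate 4, 4380 without replicate 3 and 5422 without replicate 1). Signal near the negative controls limits IGF1, IGFBP2, IGFBP5, IGFBP6 and PAPPA.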

Other observations

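Several other genes of the pathway had more than 1 tested probe, and no difference between probes was tested. M6PR, which encodes the cation-dependent mannose 6-phosphate receptor, had 3. The brightest, EMBV3_07677, stood at 0.0095 ± 0.12 (SD, n = 4), while EMBV3_00575 stood at 0.20 ± 0.13 and EMBV3_24633 at 0.29 ± 0.30, both above 0 in all 4 replicates. Of all tested probes, 20.4% lay on the same side of 0 in all 4 replicates. For GAB1, a docking protein of receptor tyrosine kinases, EMBV3_07676 stood at 0.032 ± 0.18 and EMBV3_12769 at 0.30 ± 0.29. For GRB14 the probes EMBV3_32192 and EMBV3_14971 stood at 0.24 ± 0.47 and 0.18 ± 0.26. The 3 tested probes of IGF2BP3, which encodes an RNA-binding protein, stood at 0.025 ± 0.035, -0.22 ± 0.21 and -0.052 ± 0.11. No probe passed limma after adjustment over all probes. These values were singled out after they were seen.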
